A study of Sus scrofa with 4 samples.

Results

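The 4 genes described here were chosen by name from the deposited table of counts. They encode 2 B-type cyclins, CCNB1 and CCNB2, the oocyte kinase WEE2 and the kinase MOS. They are 4 of the 4381 gene symbols listed, and all 4 were among the 2387 genes with enough counts to be tested. RNA-seq was carried out on porcine M II oocytes (oocytes at metaphase of the second meiotic division) in 4 libraries. For the 2 control libraries, cumulus cell-oocyte complexes spent 42 to 44 h in maturation medium, and for the 2 SIRT6-inhibited libraries the medium also held 100 μM SIRT6-IN-1, an inhibitor of the deacylase SIRT6. Both groups share ovaries from slaughtered pigs and a medium with gonadotropins, and whether the controls received the solvent DMSO was not given in the sources used here. Each library was made from pooled oocytes, and the methods give 100 oocytes per group without the number in each library. No source states that the libraries of a group came from separate cultures, so the p-values below measure the spread between these libraries, which may be technical.

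Maturation-promoting factor (MPF) is the complex of a B-type cyclin with the kinase CDK1. Its activity makes the oocyte resume meiosis and holds it at metaphase. WEE2 is the oocyte member of the WEE1 kinase family and inhibits CDK1 by phosphorylation, while the CDC25 phosphatases remove that mark. MOS starts the MAPK cascade of cytostatic factor, which keeps cyclin B from being destroyed by the anaphase-promoting complex (APC/C) until fertilization. A fully grown oocyte hardly transcribes, so these mRNAs are largely stored ones whose use is set by their poly(A) tails, by their translation and by their decay.

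The libraries held 4646129 counts in control 1, 3405960 in control 2, 3239200 in SIRT6-inhibited 1 and 4972602 in SIRT6-inhibited 2. A value of 3 counts, taken as the least that could be told from 0, was between 0.603 and 0.926 CPM (counts scaled to each library's sum). This limit and the intervals on counts cover counting error alone, since amplified reads are not independent molecules. All 4 genes lay far above this limit in every library. The oocyte identity of the samples was visible in 13 listed oocyte markers out of 20 written down, whose summed level was 76944, 78406, 76149 and 77537 normalized CPM in control 1, control 2, SIRT6-inhibited 1 and SIRT6-inhibited 2. Normalized CPM are CPM after TMM scaling, edgeR's correction of library totals. KPNA7, an oocyte nuclear import receptor, was the most abundant marker, with 28140 and 25658 normalized CPM in the controls and 27534 and 28945 after inhibition. For cumulus and granulosa cells, 23 of 27 markers were listed, 7 of these had 0 counts in every library, and 10 could be tested. Their summed levels were 328 and 298 normalized CPM in the controls and 170 and 313 in the SIRT6-inhibited libraries, so the summed levels overlapped. Gene by gene, 9 of the 10 had a negative log2 fold change, with a median of -0.71 beside -0.04 for all tested genes, and the unadjusted edgeR p-value was under 0.05 for 0 of them. Among the 10, 4 had both inhibited libraries below both controls and 1 had both above. Over all tested genes, 22.2% had both below and 17.9% had both above. The most abundant by the mean of the 4 libraries was VCAN, a matrix proteoglycan. It had 82.6 and 136 normalized CPM in the controls and 38.8 and 142 after inhibition. In control 1 and SIRT6-inhibited 1 another of these markers was higher than VCAN. The gonadotropin receptors FSHR and LHCGR and the hormone AMH had 0 counts in all 4 libraries. The part of cumulus cell RNA in the differences below was not tested.

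CCNB1, which encodes cyclin B1, did not differ detectably between the groups, while CCNB2, which encodes cyclin B2, was 1.82-fold lower in SIRT6-inhibited oocytes, with an unadjusted p-value under 0.05 and an adjusted one of 0.460 in edgeR. CCNB1 lies on pig chromosome 16 (chr16:47338239-47348385) and CCNB2 on chromosome 1 (chr1:112907047-112942218) in the RefSeq annotation of Sscrofa11.1. CCNB1 had 6447 and 5608 normalized CPM in control 1 and 2, and 6055 and 6259 in SIRT6-inhibited 1 and 2. The inhibited libraries lay between the control libraries. The means were 6028 ± 593 and 6157 ± 144 normalized CPM (SD, n = 2 each). The log2 fold change (SIRT6-inhibited over control) was 0.03, with a standard error of 0.10 and a 95% interval from -0.22 to 0.28 (edgeR's quasi-likelihood test, two-sided, adjusted p = 0.989). CCNB1 counts were 29880, 19935, 19502 and 30071 in the same order of libraries, so counting error was small beside the spread between libraries.

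CCNB2 had 395 and 433 normalized CPM in control 1 and 2, and 247 and 207 in SIRT6-inhibited 1 and 2. Both inhibited libraries were below both controls, and the gap between the groups was wider than the gap within either one. The underlying counts were 1831 and 1539 in the controls and 795 and 995 after inhibition. The means were 414 ± 26.8 and 227 ± 28.1 normalized CPM (SD, n = 2 each). On the log2 scale the difference was -0.87, its standard error 0.18 and its 95% interval -1.30 to -0.44 (edgeR's quasi-likelihood test, adjusted p = 0.460 over all tested genes). It therefore missed the adjusted threshold of 0.05 in this fit. It passed in DESeq2's Wald test (adjusted p = 0.0343), in edgeR without a filter on low counts (adjusted p = 0.00736), and in edgeR without SIRT6-inhibited library 1 (adjusted p = 0.0176). The edgeR adjusted p was 0.65 without control library 1, 0.950 without control library 2 and 0.17 without SIRT6-inhibited library 2. Over all alternatives other than leaving out a library, the adjusted p ran from 0.00736 to 0.455. In these pooled samples, fewer oocytes carrying the mRNA and less mRNA per oocyte cannot be told apart.

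**Figure D1:**
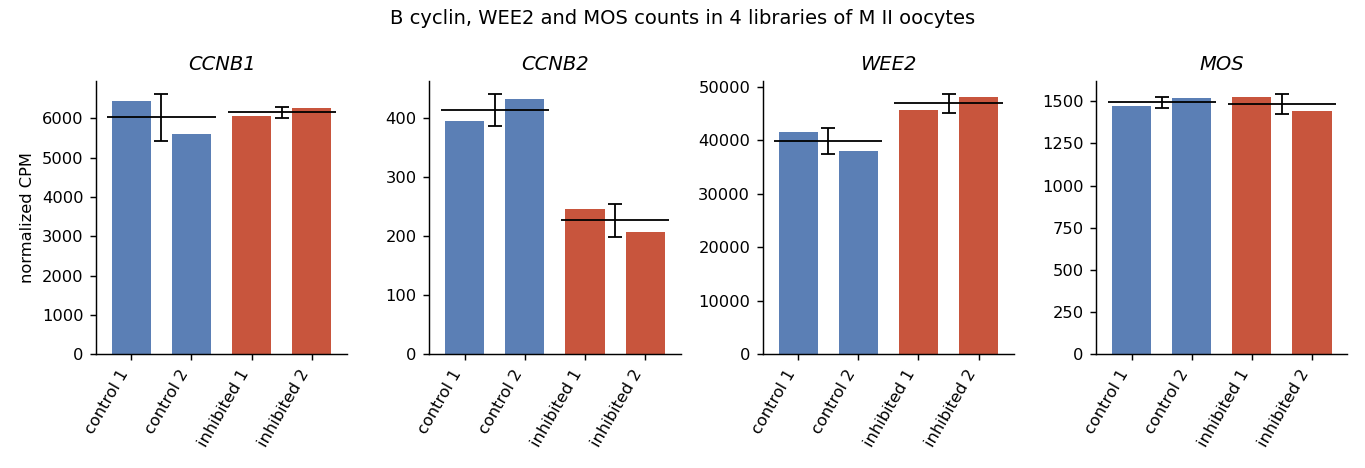
Normalized CPM (vertical axes from 0, each with its own scale) of CCNB1, CCNB2, WEE2 and MOS in each library, with black lines for the group mean and whiskers for the SD of 2 libraries. The CCNB2 bars of the inhibited libraries, 247 and 207, stand below the control bars at 395 and 433, and the WEE2 bars of the inhibited libraries stand above those of the controls.

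The balance of the B cyclins was compared within each library, where library size has no part. CCNB1 had 16.3 times the counts of CCNB2 in control 1 (95% exact binomial interval 15.6 to 17.1) and 13 times in control 2 (12.3 to 13.7). In SIRT6-inhibited libraries the ratio was 24.5 (22.9 to 26.4) and 30.2 (28.4 to 32.2). No interval overlapped another. Reads were not divided by transcript length, so these are ratios of counts and not of molecules, but length cancels when libraries are compared. Put another way, CCNB2 gave 5.77% and 7.17% of the B cyclin counts in the controls (95% exact intervals 5.52% to 6.04% and 6.83% to 7.52%) and 3.92% and 3.20% after inhibition (3.65% to 4.19% and 3.01% to 3.4%). The mean log2 ratio was 3.86 in control and 4.77 in SIRT6-inhibited oocytes, a difference of 0.91, against a largest gap of 0.33 between libraries of one group. The exact two-sided permutation test gave p = 0.333, the smallest that 2 libraries against 2 allow, and 0.444 after Benjamini-Hochberg adjustment over the 4 ratios compared. The ratio was higher in 2 of 2 inhibited libraries than in either control.

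WEE2, on chromosome 18 (chr18:8171133-8196836), had the second highest count of all listed genes in every library, a rank that also depends on transcript length. It took 4.15% of all counts in control 1 (95% exact interval 4.13% to 4.17%) and 3.98% in control 2 (3.96% to 4.0%). After inhibition it took 4.54% (4.52% to 4.56%) and 4.65% (4.64% to 4.67%). Its normalized CPM were 41633 and 38115 in the controls and 45678 and 48170 in the SIRT6-inhibited libraries, so both inhibited libraries were above both controls. The means were 39874 ± 2488 and 46924 ± 1763 normalized CPM (SD, n = 2 each), 1.18-fold higher after inhibition. Its log2 fold change was 0.23, with a standard error of 0.08 and a 95% interval from 0.05 to 0.42 (edgeR's quasi-likelihood test, adjusted p = 0.487). The adjusted p was under 0.05 in DESeq2's Wald test (0.0200) and between 0.0873 and 0.476 in the other alternatives that kept all libraries. Its unadjusted edgeR p-value was no longer under 0.05 without SIRT6-inhibited library 1 (log2 fold change 0.27) or without library 2 (0.19). A difference of this size was not rare among strongly counted genes. Of the 164 tested genes with a mean of at least 1000 normalized CPM, 42 had a log2 fold change at least as far from 0, WEE2 included.

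Set against their inhibitor, the summed B cyclin counts were 0.164 and 0.159 of the WEE2 count in the controls and 0.138 and 0.134 in SIRT6-inhibited oocytes. The 95% exact intervals were 0.162 to 0.166 and 0.156 to 0.161 in the controls. In the inhibited libraries they were 0.1360 to 0.1400 and 0.1327 to 0.1358. No interval overlapped another, within a group or between groups, and they cover counting error only, so they do not measure the spread between libraries. The mean log2 ratio differed by -0.25, from -2.63 to -2.88, while libraries of one group differed by at most 0.05. The exact permutation p was again 0.333, the smallest possible, and 0.444 after adjustment over the 4 ratios. CCNB1 makes up most of the B cyclin sum, so this ratio carries the WEE2 difference together with a small part from CCNB2.

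**Figure D2:**
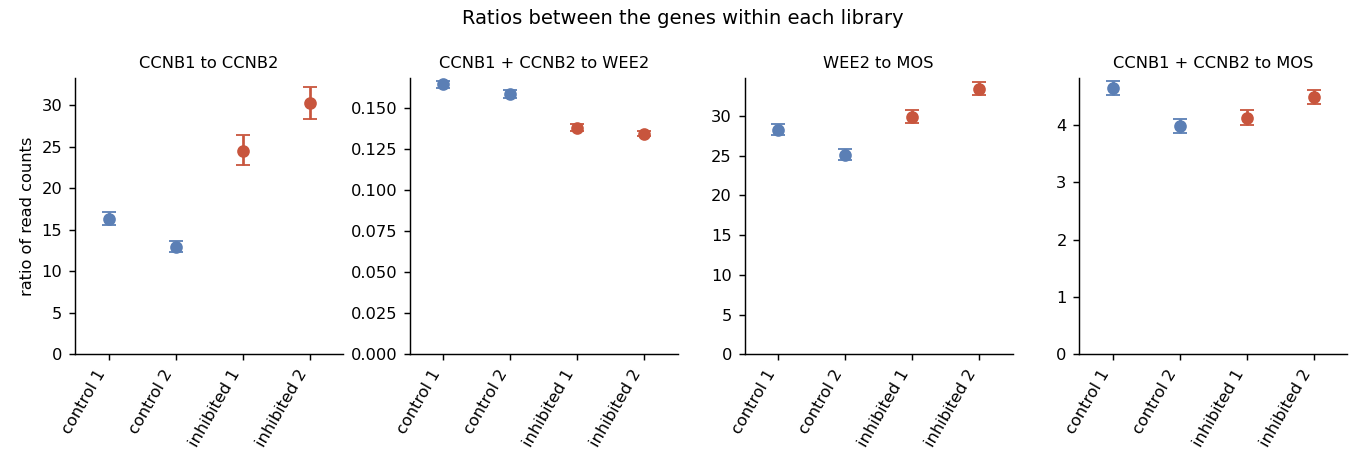
Ratios of read counts between the genes within each library (vertical axes from 0), with 95% exact binomial intervals that cover counting error only. CCNB1 to CCNB2 is 16.3 and 13 in the controls and 24.5 and 30.2 in the inhibited libraries, while the B cyclins to MOS overlap between the groups.

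MOS, on chromosome 4 (chr4:75739402-75741076), showed no detectable difference. It had 1473 and 1519 normalized CPM in the controls and 1526 and 1441 in the SIRT6-inhibited libraries, from 6826, 5398, 4914 and 6923 counts. The inhibited libraries lay on either side of the controls. The means were 1496 ± 32.3 and 1483 ± 59.9 normalized CPM (SD, n = 2 each), and the log2 fold change was -0.01, its standard error 0.11 and its 95% interval -0.27 to 0.25 (edgeR's quasi-likelihood test, adjusted p = 0.992). The summed B cyclin counts were 4.65 and 3.98 times the MOS count in the controls and 4.13 and 4.49 times in the inhibited libraries (exact permutation p = 1). For WEE2 to MOS, a ratio added after the counts were seen, the values were 28.3 and 25.1 in the controls and 29.9 and 33.4 after inhibition. The groups did not overlap, with a log2 difference of 0.25 against a largest gap of 0.17 within a group (exact permutation p = 0.333, adjusted over the 4 ratios 0.444). Without control library 2 the difference was 0.16, and without SIRT6-inhibited library 2 it was 0.17, no more than that gap.

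In edgeR's quasi-likelihood test the adjusted p-value was under 0.05 for 0 of the 4 genes and for 0 (0%) of all 2387 tested. DESeq2's Wald test called 37 genes and limma-voom 0. At an unadjusted p-value under 0.05 edgeR had 216 genes (9.05%), of which 143 (5.99% of those tested) lay lower after inhibition and 73 (3.06%) higher. The higher side thus held 33.8% of these calls, while it held 23.87% with library totals only and 37.5% with RLE scaling. Of the 4 genes, 2 had an unadjusted edgeR p-value under 0.05, CCNB2 on the lower side and WEE2 on the higher. Libraries of the groups did not overlap in 40.1% of tested genes, with both inhibited libraries below both controls in 22.2% and above in 17.9%, so that lack of overlap in 2 of the 4 genes is near this background. By p-value CCNB2 was number 7 of all tested genes. Of the 882 tested genes with a mean of at least 100 normalized CPM, 22 had a log2 fold change as low as that of CCNB2 or lower, CCNB2 included, and 5 a p-value as small. The standard errors of CCNB1, MOS and WEE2, between 0.08 and 0.11, were below the median of 0.19 for those 882 genes, and that of CCNB2, 0.18, was close to it.

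**Figure D3:**
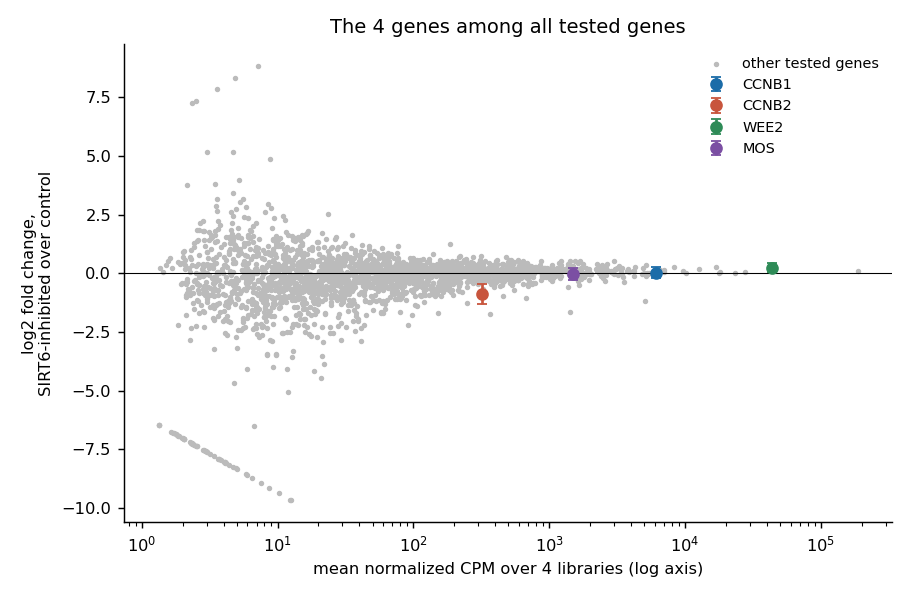
Log2 fold change of SIRT6-inhibited over control oocytes against the mean normalized CPM of 4 libraries (log axis) for all tested genes in grey and the 4 genes in colour with 95% intervals. CCNB2 lies at -0.87, near the lower edge of genes of like abundance, while CCNB1 and MOS lie at 0.03 and -0.01.

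The catalytic partner and the other cyclins were read from the same fit. CDK1, the kinase subunit of MPF, had only 132 and 208 counts in the controls and 72 and 7 after inhibition. These are 28.5 and 58.5 normalized CPM against 22.4 and 1.46, so both inhibited libraries were lower, but they also differed widely from each other. CDK1 thus had a fitted log2 difference of -1.88, a standard error of 1.17 and a 95% interval from -4.68 to 0.92 (edgeR's quasi-likelihood test, adjusted p = 0.744). The value rested on SIRT6-inhibited library 2, since without it the log2 fold change was -0.96, and without library 1 it was -4.88, with an adjusted p in edgeR of 0.000424. Of 10 cyclin genes listed, grouped by symbol after the counts were seen, 9 could be tested and CCND2 had 0 counts. CCNB2 was the 1 with an unadjusted edgeR p-value under 0.05, a level that 9.05% of all tested genes met. CCNA2, encoding cyclin A2, had 2038 and 1656 normalized CPM in the controls and 2049 and 2132 after inhibition, 0.18 higher on the log2 scale (SE 0.13, edgeR's quasi-likelihood test, adjusted p = 0.833). That difference rested on control library 2, since without it the log2 value was 0.03, and without control library 1 it was 0.33. CCNE2, encoding cyclin E2, was scarce, with 72 and 25 counts in the controls and 0 and 6 after inhibition (edgeR adjusted p = 0.615).

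The other regulators of the CDK1 inhibitory phosphorylation were PKMYT1, CDC25B and CDC25C. PKMYT1, the membrane-bound relative of WEE2, had 150 and 137 normalized CPM in the controls and 189 and 213 after inhibition. Both inhibited libraries were above both controls, by 0.49 on the log2 scale with a 95% interval from -0.03 to 1.01 (edgeR's quasi-likelihood test, adjusted p = 0.569). CDC25C, a phosphatase that activates CDK1, had 593 and 556 normalized CPM in the controls and 644 and 654 after inhibition, 0.18 higher on the log2 scale (SE 0.13, edgeR adjusted p = 0.827). CDC25B, the phosphatase that starts meiotic resumption in mammalian oocytes, varied more within the groups than between them, with 37.1 and 119 normalized CPM in the controls and 146 and 26.6 after inhibition (edgeR adjusted p = 0.992). The kinase WEE1 was not analysed here. AURKA, a kinase of the spindle poles, had 280 and 1097 normalized CPM in the controls and 659 and 175 after inhibition. The groups overlapped, and its log2 fold change was -0.73 (SE 0.74, edgeR adjusted p = 0.941). It was 0.57 without control library 2, -0.06 without SIRT6-inhibited library 2 and -1.41 without control library 1. Without SIRT6-inhibited library 1 it was -1.98, with an edgeR adjusted p of 3.94e-11. The edgeR fit without a filter on low counts gave AURKA the same adjusted p as CCNB2, 0.00736, although the AURKA groups overlapped. In the whole list of MPF subunits and kinases, 15 of 24 written genes were listed and tested. CCNB2 and WEE2 were the 2 (13.3%) at an unadjusted p-value under 0.05 in edgeR, beside 9.05% of all tested genes. Both belong to the 4 genes chosen at the outset, so this share is no separate result about the list. Over all 7 pathway lists without the 4 genes, 2 of 59 tested genes (3.39%) met that level. Among the 15 genes, 7 had a negative and 8 a positive log2 fold change. Their median of 0.03 (-0.03 with library totals only, -0.08 without SIRT6-inhibited library 1) lay beside -0.04 for all tested genes. The number of MPF list genes at that unadjusted level was 4 in edgeR without a low-count filter and 4 in limma-voom. In these fits 260 and 231 genes of the whole table met it.

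In the MOS and MAPK arm, 6 of 19 written genes could be tested and 0 had an unadjusted edgeR p-value under 0.05, with a median log2 fold change of 0.17. The median was -0.05 without SIRT6-inhibited library 1, 0.32 without SIRT6-inhibited library 2, 0.02 without control library 1 and 0.04 in limma-voom. MAP2K1, the kinase that MOS phosphorylates, had 3005 and 2528 normalized CPM in the controls and 3059 and 2879 after inhibition, 0.10 higher on the log2 scale (SE 0.12, edgeR adjusted p = 0.956). RPS6KA1, a ribosomal S6 kinase that MAPK activates, had 51 and 13 counts in the controls and 72 and 92 after inhibition (edgeR adjusted p = 0.801). FBXO43, the APC/C inhibitor of this arm, and PLK1 were not analysed here.

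On the side that destroys cyclin B, 12 of 32 written genes of the APC/C and its regulators could be tested, and their median log2 fold change was 0.16, which turned to -0.01 in limma-voom and was 0.01 without control library 2. CDC20, the APC/C activator of metaphase, had 1419 and 1319 normalized CPM in the controls and 1575 and 1569 after inhibition. The inhibited libraries were above both controls, but the log2 fold change of 0.20 had a 95% interval from -0.06 to 0.46 (edgeR's quasi-likelihood test, adjusted p = 0.652). FZR1, the other activator, had 68.2 and 50.9 normalized CPM in the controls and 69.6 and 74.1 after inhibition (edgeR adjusted p = 0.964), and its log2 fold change of 0.27 was 0.07 without control library 2. CALM3, 1 of the calmodulin genes that carry the calcium signal of fertilization, was the gene of this list with an unadjusted p-value under 0.05. That was 8.33% of the 12 tested, beside 9.05% of all tested genes. CALM3 had 432 and 609 normalized CPM in the controls and 363 and 382 after inhibition, and its log2 fold change was -0.48 (SE 0.20, edgeR adjusted p = 0.540). Whether reads shared with other calmodulin genes entered its count was not tested. Its unadjusted p-value was no longer under 0.05 with RLE scaling, without SIRT6-inhibited library 1, or without control library 2, where the log2 fold change was -0.22. The Greatwall and phosphatase list joins the Greatwall pathway, which protects MPF substrates from dephosphorylation, with subunits of the opposing phosphatases PP1 and PP2A. Of its 20 written genes, 13 could be tested, mostly phosphatase subunits, and 0 had an unadjusted edgeR p-value under 0.05. The median log2 fold change was 0.06 (0.000322 with library totals only, 0.18 without control library 1). At that unadjusted level 2 genes of this list stood in DESeq2, a fit in which 237 genes of the whole table met it. The small phosphatase inhibitors of the Greatwall pathway were low, with 86, 117, 36 and 0 counts for ENSA and 85, 73, 72 and 129 for ARPP19.

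**Figure D4:**
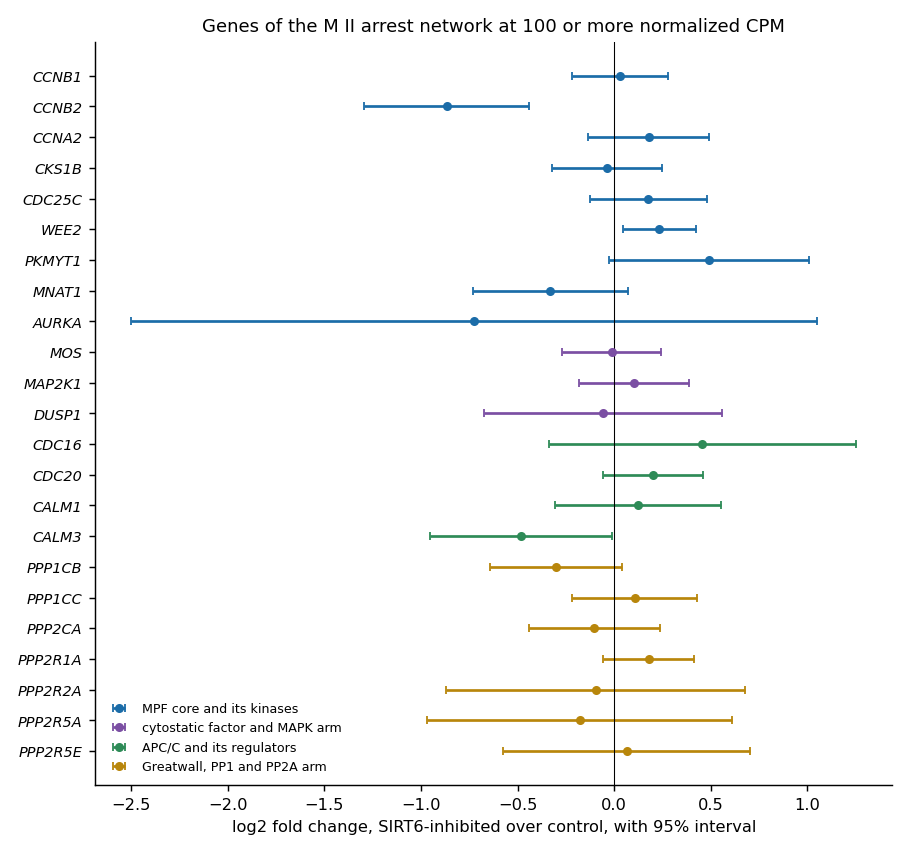
Log2 fold change of SIRT6-inhibited over control oocytes with 95% intervals for the 23 genes of 4 lists with a mean of at least 100 normalized CPM, coloured by list. The intervals of 3 genes leave out 0, which are CCNB2 and CALM3 on the lower side and WEE2 on the higher.

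Genes that govern the use of stored mRNA were covered thinly, with 6 of 38 written genes tested and a median log2 fold change of -0.05. This median was 0.13 without control library 2, -0.40 without SIRT6-inhibited library 1 and -0.28 in limma-voom. CPEB1, the protein that binds the cytoplasmic polyadenylation element of B cyclin and MOS mRNAs, had 118 and 255 normalized CPM in the controls and 127 and 121 after inhibition, and its log2 fold change was -0.59 (SE 0.37, edgeR adjusted p = 0.754). This value rested on control library 2, since without it the log2 fold change was 0.07. CPEB2, a related protein, had 85.9 and 92.6 normalized CPM in the controls and 30.1 and 58.5 after inhibition. The CPEB2 log2 fold change was -1.0 (SE 0.41, edgeR unadjusted p = 0.0448, adjusted p = 0.534) and -1.57 without SIRT6-inhibited library 2. Its unadjusted p-value was under 0.05 neither in DESeq2 nor without control library 1 (-1.07), control library 2 (-0.96) or SIRT6-inhibited library 1 (-0.61). In the cAMP and PKA arm, which holds the oocyte at prophase before maturation, 8 of 20 written genes could be tested and 0 had an unadjusted edgeR p-value under 0.05, with a median of -0.19 that was 0.02 without control library 2 and 0.04 without SIRT6-inhibited library 2. With inhibited library 1 or 2 left out, 1 of its genes was at that unadjusted level. PDE3A, the oocyte cAMP phosphodiesterase, had 142 and 142 normalized CPM in the controls and 153 and 141 after inhibition, and the receptor GPR3 had 33, 36, 0 and 29 counts. Of the spindle assembly checkpoint list, 3 of 22 written genes could be tested, with a median of 0.03 (-0.03 with library totals only, -0.19 without SIRT6-inhibited library 2) and 0 at an unadjusted edgeR p-value under 0.05. Oocyte markers at that level were GDF9 and ZP2, 2 of 13 tested (15.4%) and both lower after inhibition. Of all tested genes, 9.05% met that level and 5.99% did so on the lower side. The log2 fold changes of GDF9 and ZP2 were -1.65 and -0.37 (edgeR adjusted p = 0.469 and 0.510). For GDF9, an oocyte growth factor, the edgeR adjusted p fell below 0.05 when low counts were not filtered (6.7e-26) and without SIRT6-inhibited library 1 (6.5e-22) or 2 (6.72e-05). Its log2 fold change ran from -2.46 to -0.95 with 1 library left out, the latter without control library 2, where the adjusted p was 0.950. Its unadjusted p-value was above 0.05 in that fit and, narrowly, in DESeq2. For ZP2, a zona pellucida glycoprotein, the unadjusted edgeR p-value was above 0.05 without control library 2 (-0.26) or SIRT6-inhibited library 2 (-0.24).

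Each of the 4 genes was also compared with the other tested genes of at least 50 normalized CPM by its profile over the 4 libraries. The measure was the Euclidean distance between log2 normalized CPM centred on each gene's mean, over 1164 candidates. Nearest to CCNB2 were SLC25A6, a mitochondrial ADP/ATP carrier (distance 0.15), INTS13, an Integrator subunit (0.16), and RPL7, a ribosomal protein (0.17). Whether reads from copies of RPL7 entered its count was not tested. SLC25A6 had 247 and 297 normalized CPM in the controls and 179 and 141 after inhibition, which follows the step of CCNB2. Nearest to WEE2 were HIGD2A (0.03), SLC26A11 (0.04) and DLAT (0.05), a subunit of the pyruvate dehydrogenase complex. CCNB1 was followed by GLUD1, TRIP13 and TOMM7, at distances of 0.02 each, and MOS by PRPF3, CBY1 and KANSL2, at 0.04, 0.05 and 0.06. The profile nearest to CCNB2 was farther away than those nearest to CCNB1, WEE2 and MOS. Few genes changed as far as CCNB2 (23 of 882 at 100 or more normalized CPM, CCNB2 included). The order of these distances is therefore not a result apart from the fold changes. With 4 libraries a likeness of profiles describes these samples only.

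**Figure D5:**
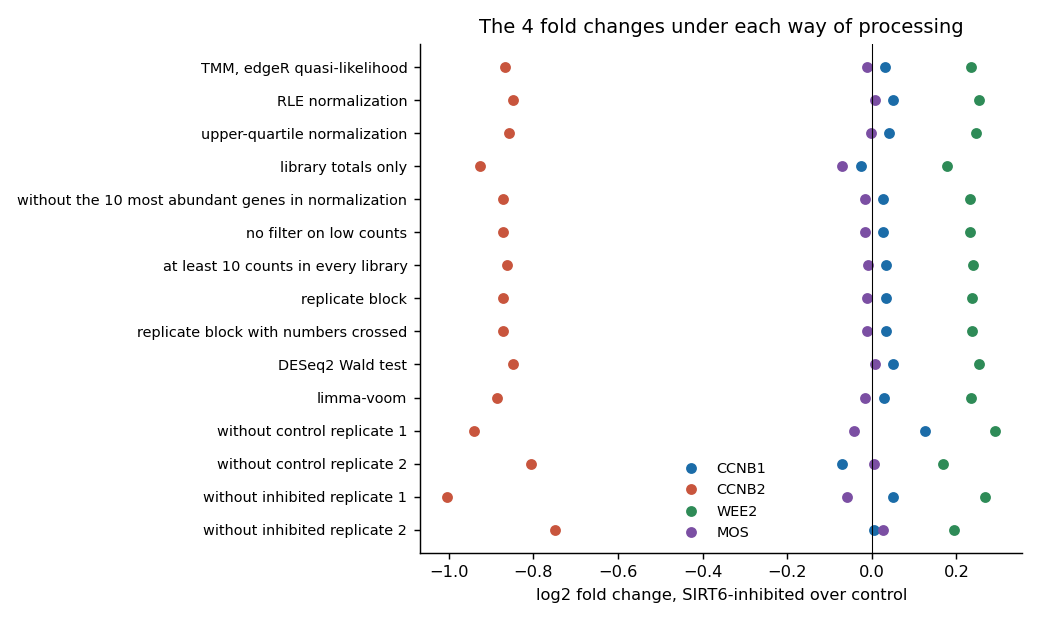
Log2 fold change of SIRT6-inhibited over control oocytes (horizontal axis) for the 4 genes under each way of processing, 1 row each. CCNB2 stays between -1.003 and -0.748 and WEE2 between 0.17 and 0.29, while CCNB1 and MOS lie on both sides of 0.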

How the data were processed

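RNA-seq of 4 libraries of porcine M II oocytes was analysed, 2 per group. The deposited values are counts of reads on each symbol, not normalized. The labels name Smart-seq2 amplification, which primes at poly(A) tails, while the methods describe fragmented RNA and random primers, and which applied cannot be told from these sources. The submitters' processing notes name TopHat2 2.0.13, Cufflinks 2.2.1, Cuffnorm and Cuffdiff and the builds susScr11 and mm10 without roles. The counting tool, annotation, strand setting and test are not given in the sources used here. Gene positions are those of RefSeq for Sscrofa11.1. No sequence was used, and levels were not divided by length.

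Genes were filtered with edgeR's filterByExpr (minimum count 10, minimum total 15), scaled by TMM (factors 0.966 to 1.04) and tested with edgeR 4.0.16's quasi-likelihood test, two-sided, with Benjamini-Hochberg adjustment over 2387 genes, in R 4.3.3. DESeq2 1.42.0, limma 3.58.1 (voom), other scalings and filters, the replicate number as a block, and leaving out each library were alternatives. The test was checked on simulated data. Each standard error was the size of the log2 fold change over the root of the F statistic. Ratios were compared by exact permutation. Named genes were the 4 genes, a written set of regulators, list genes with an unadjusted p-value under 0.05, the 3 nearest profiles of each, and the most abundant marker of each cell type. Other cyclins and the cumulus markers with 0 counts were named after their values were seen. The result of 1 gene that meets this rule is left out here. The 4 genes and the lists were chosen with earlier results of these data known.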

Additional observations from a re-analysis of the deposited data

How the results depend on the processing

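CCNB2 was lower and WEE2 higher in SIRT6-inhibited oocytes under all 14 alternatives. CCNB2 became significant without a filter on low counts (log2 fold change -0.871) and in DESeq2 (-0.848), and ranged from -1.003 to -0.748 with 1 library left out. WEE2 became significant in DESeq2 (0.254). CCNB1 changed sign with library totals only (-0.0256) and ranged from -0.0710 to 0.126 with 1 library left out. MOS changed sign with RLE (0.00744) and DESeq2 (0.00732) and ranged from -0.0582 to 0.0270. The B cyclin to MOS log2 ratio difference ranged from -0.110 to 0.114. The number of genes with an adjusted p-value under 0.05, 0 in the reported fit, was 43 without a filter, 2 with at least 10 counts in every library, 37 in DESeq2, and from 0 to 77 with 1 library left out. The unadjusted number ranged from 111 to 302 with 1 library left out, the lowest without control library 2 and the highest without SIRT6-inhibited library 1. Among other regulators, sign changes were seen for PDE3A with library totals (-0.00693), CDC25B in limma-voom (-0.220), and with 1 library left out CDC25B (-1.55 to 1.21), AURKA (-1.98 to 0.570), MAP2K1 (-0.0215 to 0.224), CPEB1 (-1.05 to 0.0655) and PDE3A (-0.0156 to 0.109). The cause was not tested. A lone library was assumed to vary like the other group.

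The replicate block gave 6 genes under that adjusted threshold, and 2 with the numbers crossed. The crossed pairing was added after the data were seen. Deviations of same-numbered libraries had only a weak negative correlation (-0.12 over 2387 genes). No source says that the numbers mark a shared batch. CDC25B changed sign in both (-0.0849 and -0.0821). The replicate block changed no call of the 4 genes, with CCNB2 at an edgeR adjusted p of 0.134. The adjusted p of GDF9 was 0.00397 with the replicate block and 0.00394 crossed. List medians changed sign for the APC/C (-0.0461 and -0.0457 in these fits), for MPF subunits and kinases (-0.0321 and -0.0324, -0.0256 with library totals, -0.0460 in limma-voom) and for the checkpoint (-0.0251 with library totals). The number of list genes at an unadjusted p-value under 0.05 ranged with 1 library left out from 2 to 5 for MPF, 0 to 2 for the APC/C, Greatwall and polyadenylation lists and 0 to 1 for cAMP. With 1 library left out the medians changed sign for all of the 7 pathway lists but the APC/C and the Greatwall arm. Medians of the marker lists were not compared in this way. CDK1, ENSA, GPR3 and CCNE2 had lowest libraries of 7, 0, 0 and 0 counts. For CDK1 and ENSA this was SIRT6-inhibited library 2, the deepest of the 4.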
